A study of Rattus norvegicus with 26 samples.

Results

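The genes described are the regulators of messenger RNA splicing in rat soleus, the slow postural muscle of the lower leg. They were chosen by name: every gene whose symbol is Srsf followed by a number or begins with Hnrnp, plus Tra2a, Tra2b, Clk1 to Clk4, Mbnl1, Mbnl2, Celf1, Celf2 and Rbfox1. This gave 44 genes of the 34034 counted, made up of 12 SR proteins, 21 hnRNPs, 2 TRA2 proteins, 4 CLK kinases and 5 factors of the MBNL, CELF and RBFOX families. Of the 44 genes, 40 had enough counts to be tested, among 10064 genes tested in all. The remaining 4 were Srsf8, Srsf12, Hnrnpr and the pseudogene Hnrnpk-ps1.

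All animals were aged female rats of generation 44 of a selection for running capacity. HCR rats come from the line bred for high capacity and LCR rats from the line bred for low capacity. The 4 groups were running HCR (5 libraries), running LCR (5), sedentary HCR (8) and sedentary LCR (8). Running rats were housed in pairs and had a wheel in the cage for over 5 months, and sedentary rats had none. The labels name neither cages nor distances run, so animals that shared a wheel were counted separately, and the labels give no exact age. Libraries were treated as separate animals, as their labels describe them. No transgene, drug or other allele is named, so line and wheel access are the factors compared. The runners are described as their own cohort, so that running and cohort cannot be told apart.

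SR proteins bind exons through an RNA recognition motif and recruit the splicing machinery through a tail rich in arginine and serine, while hnRNPs coat nascent RNA and often favour exon skipping. The TRA2 proteins resemble SR proteins and activate exons, and the CLK kinases phosphorylate the SR tails and so control where SR proteins act. In striated muscle the MBNL and RBFOX factors promote adult exon choice and CELF proteins oppose MBNL at many exons, a balance that is disturbed in myotonic dystrophy. Many SR, TRA2 and hnRNP genes limit their own output by splicing in an exon with a stop codon, which marks the transcript for decay. Synthesis of cDNA started at the poly(A) tail, so each transcript contributes about 1 tag near its end whatever its length, and the counts do not separate such splice forms. Levels are therefore compared between genes as CPM, the counts scaled to a common library size, without division by length.

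Library totals ran from 1.1 to 2.52 M counts (M, 1e+06) and averaged 1.596 M in runners against 1.822 M in sedentary rats (2-sided permutation p = 0.0907). Mitochondrially encoded transcripts took 9.627% of counts in HCR and 8.555% in LCR (permutation p = 0.00533). Markers of slow fibres were abundant in every library, with summed levels from 26870 to 53130 CPM, whereas the B-cell marker Ms4a1 had no count. The titles of HCR running 5 and LCR running 5 name the other line, while their genotype and description name the line used here. The 3 genes with the smallest p between the sedentary lines were read in these libraries. LOC102550339 stood at 26.57 CPM in HCR running 5 and at 0.8794 CPM in LCR running 5, against 10.89 to 23.05 CPM in sedentary HCR and 0 to 0.6941 CPM in sedentary LCR. RGD1560124, which was higher in LCR, had 0 CPM in HCR running 5 and 3.518 CPM in LCR running 5, and LOC102555790 had 18.4 and 0 CPM. These 3 levels lie on the side of the genotype in both libraries.

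Promoter sequences are shown for 3 genes: Tra2b, Srsf10 and Srsf11. Tra2b and Srsf10 followed Tra2a in the order of p for running, but neither had an adjusted p under 0.05 (edgeR). Srsf11 was the gene called between the lines. Tra2a, the gene called for running, had no entry among the promoters at hand. RefSeq promoters on the assembly GRCr8, from 250 bases before to 50 bases after the gene start, were at hand for 40 of the 44 genes. They are printed in the direction of transcription, and capitals mark CCAAT and TGACG on either strand. Tra2b lies at chr11:92293192-92293491 on the plus strand, Srsf10 at chr5:153372066-153372365 on the plus strand and Srsf11 at chr2:249760209-249760508 on the minus strand.
Tra2b: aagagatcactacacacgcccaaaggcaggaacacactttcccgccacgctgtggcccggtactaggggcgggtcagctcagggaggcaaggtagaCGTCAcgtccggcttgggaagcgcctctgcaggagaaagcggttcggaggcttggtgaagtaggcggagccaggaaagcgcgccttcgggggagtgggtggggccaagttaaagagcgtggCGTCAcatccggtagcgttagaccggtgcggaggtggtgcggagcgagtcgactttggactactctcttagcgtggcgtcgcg
Srsf10: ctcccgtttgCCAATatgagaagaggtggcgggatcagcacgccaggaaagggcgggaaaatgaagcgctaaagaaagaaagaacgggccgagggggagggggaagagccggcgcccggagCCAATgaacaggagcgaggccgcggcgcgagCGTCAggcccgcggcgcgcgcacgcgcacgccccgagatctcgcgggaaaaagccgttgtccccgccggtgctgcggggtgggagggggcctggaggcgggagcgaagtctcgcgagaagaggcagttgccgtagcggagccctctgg
Srsf11: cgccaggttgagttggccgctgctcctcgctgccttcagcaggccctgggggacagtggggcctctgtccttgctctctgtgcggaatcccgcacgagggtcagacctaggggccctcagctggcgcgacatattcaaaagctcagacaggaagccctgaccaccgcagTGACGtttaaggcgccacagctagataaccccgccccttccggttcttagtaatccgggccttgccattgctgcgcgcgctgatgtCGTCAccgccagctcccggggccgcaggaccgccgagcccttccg
The window of Tra2b held TGACG at 2 places and no CCAAT. That of Srsf10 held CCAAT at 2 places and TGACG at 1. Srsf11 held TGACG at 2 places and no CCAAT, and none of the 3 had a TATAAA. Over the 40 promoters, CCAAT was found in 24 (60.0%), against 37.7% of 27457 rat promoters of the same length. TGACG, the core letters of a cyclic AMP response element, was found in 21 (52.5%) against 22.0%, while the whole element TGACGTCA, which contains TGACG, was found in 0 against 1.91%. The GC box GGGCGG was found in 29 (72.5%) against 34.9%, the E box CACGTG in 6 (15%) against 6.65%, TATAAA in 5 (12.5%) against 14.3%, and the heat shock element core GAANNTTC in 4 (10%) against 8.34%. Both strands were searched. The splicing factor promoters were also richer in G and C, with a median of 62.5% against 52.3% for all promoters. The part of base composition in these motif shares, that of TGACG included, was not tested. A match shows the letters and not a bound factor.

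The most abundant of these transcripts was Mbnl2, which averaged 727 CPM over all libraries and exceeded the next gene, Hnrnpu, in 26 of 26. Hnrnpu, a nuclear scaffold protein that binds RNA and chromatin, averaged 425.5 CPM. It was followed by Rbfox1 at 370.5 CPM, by Hnrnpa2b1, which binds and sorts RNAs for transport, at 329.4 CPM, and by Hnrnpc, which covers uridine tracts of nascent RNA, at 261.9 CPM. Srsf2, an SR protein that stays in the nucleus, led the SR proteins at 233.2 CPM, ahead of Srsf11 at 157.7 CPM and Srsf5 at 105.2 CPM. Tra2a averaged 191.4 CPM and Tra2b 92.33 CPM. Of the kinases, Clk1 stood highest at 82.13 CPM, ahead of Clk3 at 70.69, Clk4 at 25.97 and Clk2 at 20.48 CPM.

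The lowest tested gene was Srsf9 at 5.309 CPM, and the median over the 40 genes was 94.2 CPM. Among the untested genes, Hnrnpr had 210 counts over all 26 libraries and no more than 13 in any, and Srsf12, a brain-enriched SR protein, had 30 counts in 14 libraries. Hnrnpk-ps1 had 1 count and Srsf8 had 0, which allows up to 1.04 CPM for Srsf8 in the deepest library and 3.07 CPM in the shallowest (3 counts, counting error only). These limits are for each library taken alone, and the limit for the mean level over all 26 libraries is lower. In the order of levels, 32 of 39 neighbouring pairs differed by no more than 1 SD of their difference over libraries. The exceptions at the top were Mbnl2 over Hnrnpu, Hnrnpu over Rbfox1 and Hnrnpa2b1 over Hnrnpc.

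**Figure D1:**
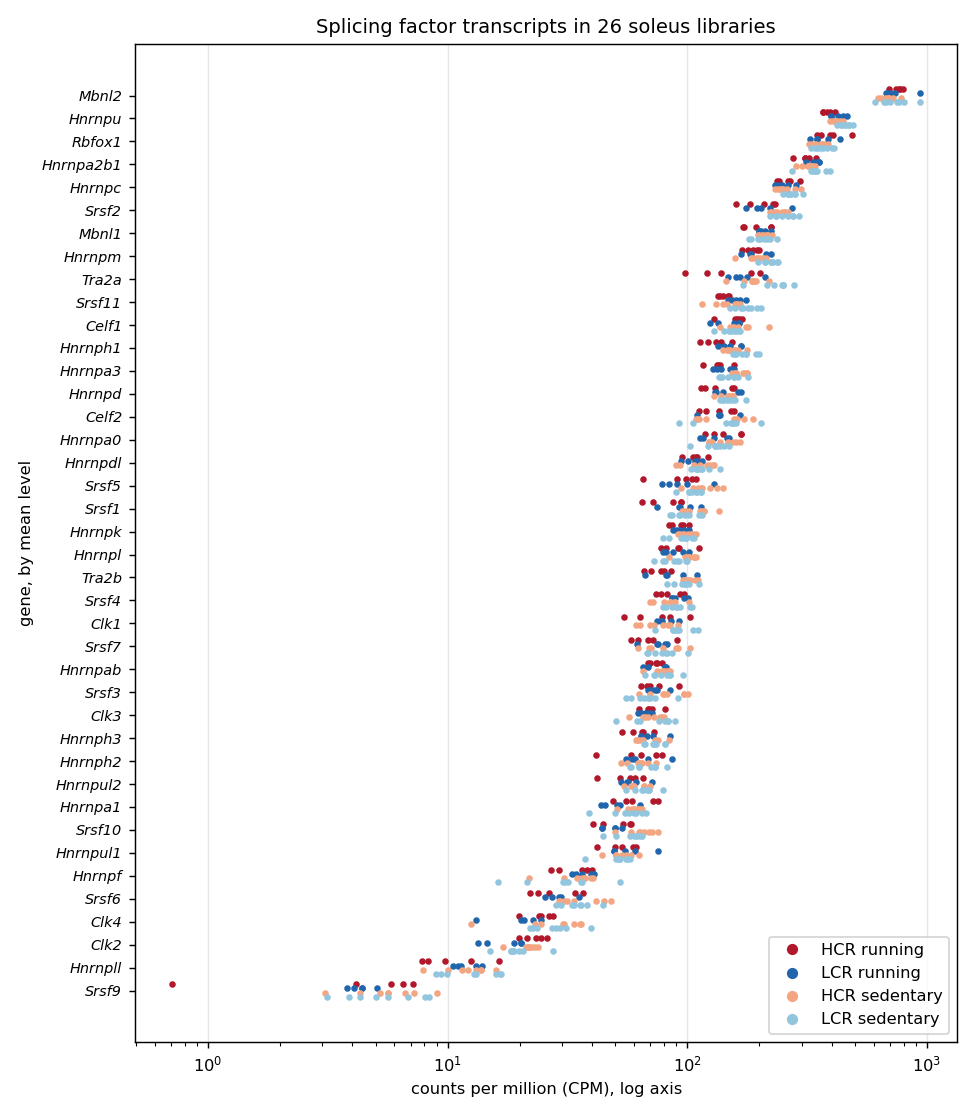
Level of each of the 40 tested splicing factors in CPM (log axis), ordered by mean, with 1 point per library coloured by group. Mbnl2 is at the top, the groups lie close together for most genes, and 1 running HCR library of Srsf9 stands far to the left at 0.7093 CPM.

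These levels varied little. The ratio of the highest to the lowest library had a median of 1.76 and stayed under 2 for 27 of the 40 genes. The SD of log2 CPM within groups had a median of 0.168, from 0.0731 for Hnrnpu to 0.497 for Srsf9. Its counts per library, 1 to 17, were the lowest among the tested genes.

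The study's comparison of running with sedentary rats asks what wheel access changed in the muscle. Averaged over the lines, 1 of the 40 tested splicing factors passed the threshold: Tra2a fell to 0.764 times the sedentary level (adjusted p = 0.0491, edgeR quasi-likelihood test over 10064 genes, threshold 0.05). In the same comparison 38 genes of all tested were called, 0.378%, against 2.5% of the splicing factors, which is a single gene. Most members had lower estimates in runners, 34 of 40 with a median log2 fold change of -0.0889. Over all genes tested 5136 of 10064 estimates were below 0, with a median of -0.00404. An unadjusted p under 0.05 was reached by 13 of the 40 members and by 12.7% of all genes. In whole muscle, fewer cells of a type and less RNA per cell cannot be told apart.

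Tra2a, an activator of exon inclusion, had 120.6, 138.1, 200.2, 97.88 and 184.7 CPM in running HCR and 147.6, 159.1, 177.3, 166.2 and 211.1 CPM in running LCR. Sedentary HCR rats ranged from 145.6 to 219.5 CPM with a median of 187.6, and sedentary LCR rats from 170.1 to 277.7 CPM with a median of 249.2. The groups overlapped, and 9 of 10 runners lay below the sedentary mean. The log2 fold change was -0.39 (SE 0.09, 95% interval -0.58 to -0.20). The call lay close to the threshold and was lost in most fits without 1 library. Adjusted p ran from 0.0139 to 0.125 as each of the 26 was left out, and exceeded 0.05 in 20 of these fits. Without HCR running 5 and LCR running 5 it was 0.0497, and with these libraries placed by their titles 0.0657.

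Its paralogue Tra2b, which acts on many of the same exons, had 70.52, 77.86, 85.71, 65.96 and 80.34 CPM in running HCR and 66.74, 82.23, 95.6, 81.5 and 109.9 CPM in running LCR. In sedentary HCR it ranged from 95.81 to 110.8 CPM with a median of 100.2, and in sedentary LCR from 82.14 to 111.9 CPM with a median of 97.73. All 5 running HCR libraries lay below all 8 sedentary HCR libraries, whereas running and sedentary LCR overlapped. Averaged over the lines, the log2 fold change was -0.28 (SE 0.07), and its adjusted p of 0.0549 missed the threshold. With the libraries of conflicting titles left out the adjusted p was 0.0297, and with the line taken from the titles 0.0713. It was 0.135 with the replicate block and 0.104 with no filter on low counts. It was under 0.05 with DESeq2 (0.0213), limma voom (0.0379) and upper-quartile factors (0.0466). With RLE factors it was 0.0544, and with mitochondrial genes left out of library sizes 0.055. Tra2b thus passed in 4 of these 9 other settings, and in 3 of the 26 fits that left out a single library.

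**Figure D2:**
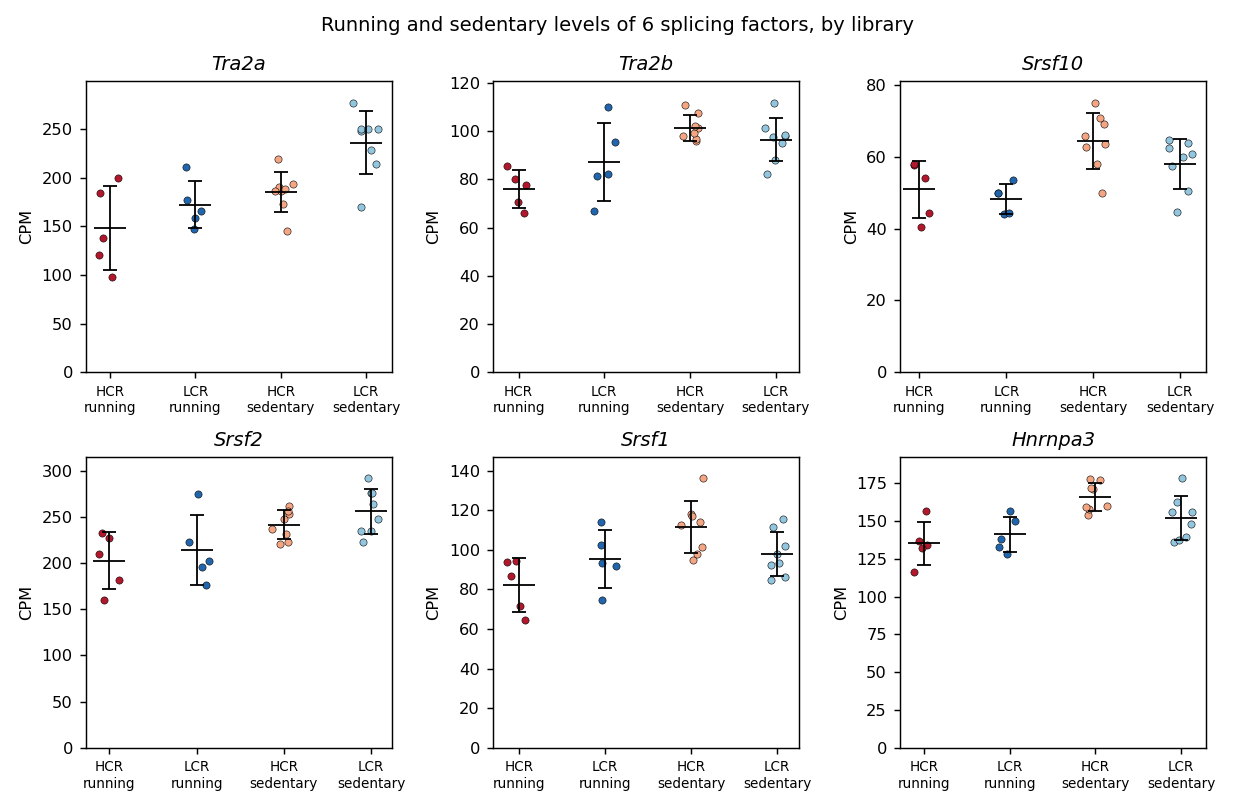
CPM of 6 splicing factors in each library by group, with the group mean (long bar) and SD (whiskers), 5 running and 8 sedentary libraries per line. The running HCR points of Tra2b and Srsf1 lie below all sedentary HCR points, and the other groups overlap at least in part.

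Of the 10 SR proteins tested, 9 had a lower estimate in runners, with a median log2 fold change of -0.24, and 0 passed the threshold in edgeR. Srsf10, a splicing repressor when dephosphorylated, as known from heat-shocked cells, had 54.16, 57.62, 44.48, 58.16 and 40.58 CPM in running HCR and 43.95, 44.28, 49.83, 49.91 and 53.64 CPM in running LCR. Its range was 49.98 to 75.17 CPM in sedentary HCR (median 64.72) and 44.59 to 64.82 CPM in sedentary LCR (median 60.47). All 10 runners lay below the sedentary mean although the ranges overlapped. The log2 fold change was -0.31 (SE 0.08, adjusted p = 0.0693, edgeR).

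Srsf2 had 233, 182.2, 209.9, 160.3 and 226.9 CPM in running HCR and 175.8, 202.4, 195.3, 222.4 and 274.4 CPM in running LCR. Sedentary HCR ranged from 221.1 to 262.3 CPM (median 242.7) and sedentary LCR from 222.5 to 291.9 CPM (median 255.8). The low values came from both lines, and LCR running 5, at 274.4 CPM, was the only runner above the sedentary mean. The log2 fold change was -0.26 (SE 0.07, adjusted p = 0.0761, edgeR).

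Among the other SR proteins, Srsf1, a prototype of the family that shuttles between nucleus and cytoplasm, had a log2 fold change of -0.25 (adjusted p = 0.148, edgeR). Srsf6 was at -0.30 (adjusted p = 0.193) and Srsf5 at -0.23 (adjusted p = 0.194), each with 9 of 10 runners below the sedentary mean. Srsf9, at -0.32, had a wide 95% interval, from -0.77 to 0.14. Srsf7 was at -0.16 and Srsf11 at -0.10. Srsf3, the smallest SR protein, was at -0.02, with a 95% interval from -0.19 to 0.15. Srsf4 alone of the tested SR proteins had an estimate above 0, at 0.01 (95% interval -0.13 to 0.15).

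The 4 kinase estimates were all below 0, and 0 of 4 passed in edgeR. Clk4 had 27.59, 26.47, 24.41, 24.12 and 19.88 CPM in running HCR and 22.79, 13.14, 20.86, 24.64 and 20.23 CPM in running LCR. In sedentary HCR it ranged from 12.49 to 36 CPM (median 30.44) and in sedentary LCR from 22.16 to 39.67 CPM (median 27.91). The 10 runners lay below the sedentary mean, but 1 sedentary HCR library was lower than any of them. The log2 fold change of Clk4 was -0.35 (SE 0.13, adjusted p = 0.237, edgeR), and at 20 to 103 counts per library it is less precisely measured than Clk1. For Clk1 the estimate was -0.08 (95% interval -0.26 to 0.09), for Clk2 -0.04 (-0.25 to 0.16) and for Clk3 -0.07 (-0.23 to 0.09).

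Estimates of the 19 tested hnRNPs were closer to 0 than those of the SR proteins. Their median log2 fold change was -0.0865, with 16 of 19 below 0 and 0 past the threshold in edgeR; whether hnRNPs and SR proteins differ was not tested. Hnrnph1, which binds guanine tracts, was at -0.21 (SE 0.06, adjusted p = 0.115, edgeR). Hnrnpa3 had 136.9, 133.9, 156.8, 116.3 and 132.5 CPM in running HCR and 128.6, 150.3, 132.7, 138.4 and 156.5 CPM in running LCR, against 154.1 to 177.6 CPM (median 165.7) in sedentary HCR and 135.9 to 178.4 CPM (median 152) in sedentary LCR. All 10 runners were below the sedentary mean, and the estimate was -0.20 (SE 0.06, adjusted p = 0.121, edgeR).

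The abundant Hnrnpu, Hnrnpa2b1 and Hnrnpc were at -0.11, -0.02 and -0.04 on the log2 scale. Their 95% intervals ran from -0.21 to -0.01, from -0.13 to 0.09 and from -0.16 to 0.07. Above 0 were Hnrnpul1 at 0.08, Hnrnpf at 0.08 and Hnrnpa0 at 0.02.

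Of the 5 muscle splicing regulators, 0 passed in edgeR and 0 had an unadjusted p under 0.05. Mbnl2 averaged 754.9 ± 38.3 CPM in running HCR and 745.8 ± 109.1 CPM in running LCR (SD, n = 5 each), against 688.5 ± 47.51 CPM in sedentary HCR and 736.5 ± 100.4 CPM in sedentary LCR (n = 8 each). Its log2 fold change was 0.08 (95% interval -0.06 to 0.21). Mbnl1 was at -0.04 (-0.15 to 0.08) and Rbfox1 at 0.08 (-0.04 to 0.20). Celf1 was at -0.07 (-0.20 to 0.07), and Celf2, the most variable of these 5 genes, at -0.08 (-0.31 to 0.15).

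**Figure D3:**
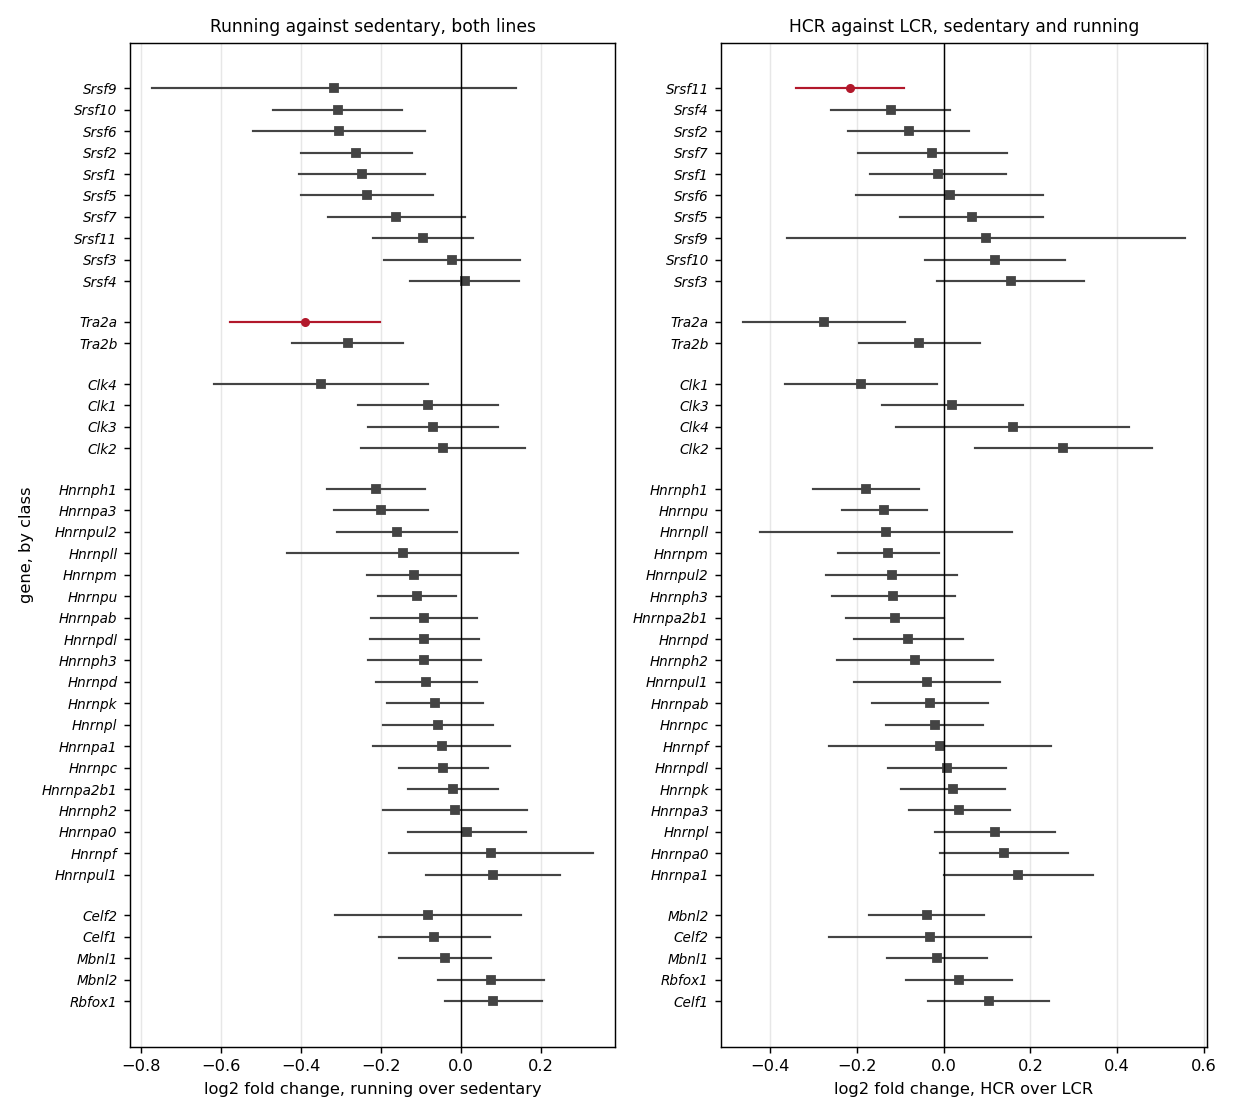
Log2 fold change (edgeR) of the 40 tested genes by class with 95% intervals, for running over sedentary rats (left) and HCR over LCR (right). Red circles mark the called genes, Tra2a on the left at -0.39 and Srsf11 on the right at -0.21; most SR, TRA2, CLK and hnRNP estimates on the left lie below 0.

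Within HCR, 0 of 40 splicing factors passed in edgeR, against 0.0994% of all genes (10 of 10064). An unadjusted p under 0.05 was reached by 9 of 40 in edgeR, against 12.5% of all genes. DESeq2 called 3 members, namely Tra2b, Srsf1 and Hnrnpa3. Its share of all genes is not given here, so these 3 cannot be set against the edgeR share. Tra2b had the lowest p, at -0.41 on the log2 scale (SE 0.10, adjusted p = 0.0837, edgeR). Srsf1 followed at -0.45 (SE 0.11, adjusted p = 0.0857, edgeR). It had 94.02, 71.63, 86.79, 64.54 and 94.42 CPM in running HCR, against 94.95 to 136.2 CPM (median 113.5) in sedentary HCR. The groups did not overlap, by a margin of under 1 CPM. These were the 2 members of 40 without overlap, against 0.596% of all genes (60 of 10064), and Hnrnpa3, at -0.30 (adjusted p = 0.118, edgeR), overlapped.

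Within LCR, 0 of 40 members and 0% of all genes passed in edgeR; 6 of 40 members had an unadjusted p under 0.05, against 6.08% of all genes, and DESeq2 called 0. The lowest p was that of Tra2a, at -0.46 (SE 0.13, adjusted p = 0.608, edgeR), with all 5 runners below the sedentary LCR mean. Srsf2 was at -0.26 and Clk4 at -0.47. Srsf1, by contrast with HCR, was at -0.05 with a 95% interval from -0.27 to 0.17 in LCR.

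Estimates were below 0 in both lines for 26 of the 40 members (65%), against 28.5% of all genes tested; these comparisons share no library. Above 0 in both were 3 members, and 11 had opposite signs. Tra2a, Tra2b, Clk4 and 8 SR proteins were among the 26.

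**Figure D4:**
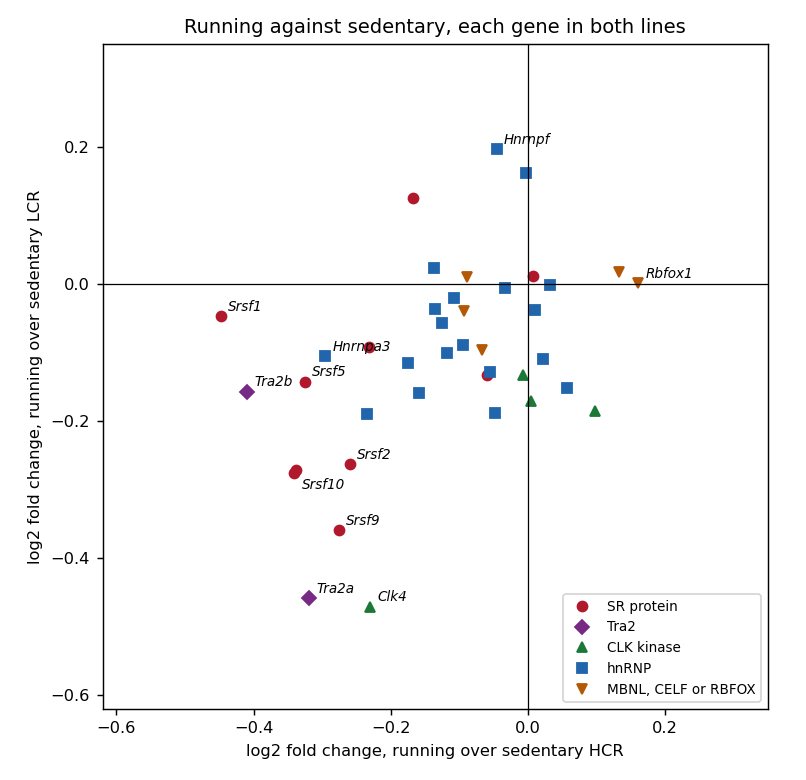
Log2 fold change of running over sedentary rats in HCR (horizontal axis) and in LCR (vertical axis) for the 40 tested genes, with symbols by class and selected genes named. The lower left field holds 26 of 40 genes, with Tra2a and Clk4 farthest from the centre.

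The difference between the lines in their response to running was tested as an interaction, and 0 of 40 members and 0% of all genes passed in edgeR, with DESeq2 also calling 0. An unadjusted p under 0.05 was found for 1 member, against 5.88% of all genes. This was Srsf1, whose response in HCR minus that in LCR was -0.40 on the log2 scale (SE 0.15, 95% interval -0.71 to -0.09, adjusted p = 0.835, edgeR). Srsf3 was at -0.29 and Tra2b at -0.25, with 95% intervals from -0.63 to 0.05 and from -0.53 to 0.03. A dependence on the line was thus not detectable for any member at this depth and number of animals.

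The comparison of the lines asks how the muscle's transcripts differ between HCR and LCR. Each capacity is represented by 1 line, so that selection and any other difference between the lines cannot be told apart. Averaged over sedentary and running rats, 1 of 40 splicing factors passed, against 3.75% of all genes (377 of 10064). Srsf11 fell to 0.862 times the LCR level in HCR (log2 fold change -0.21, SE 0.06, 95% interval -0.34 to -0.09, adjusted p = 0.0391, edgeR). The share of members called, 2.5%, did not exceed that of all genes. Estimates below 0 numbered 24 of 40, with a median of -0.0233, against 4959 of 10064 genes and a median of 0.00276.

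Srsf11, an SR-related protein known from neurons to promote inclusion of very short exons, had 136.9, 140.7, 134.5, 148.2 and 149.1 CPM in running HCR, against 153.6, 165.4, 176.1, 147.8 and 159.2 CPM in running LCR. In sedentary HCR it ranged from 115.6 to 166.4 CPM (median 151.8), against 150.2 to 202.5 CPM (median 175) in sedentary LCR. All 13 HCR libraries lay below the mean of the 13 LCR libraries, and the ranges overlapped in both conditions. The call was lost in 14 of the 26 fits that left out 1 library, with adjusted p from 0.0201 to 0.0884. It stood at 0.0822 without the libraries of conflicting titles and at 0.188 with the line taken from the titles.

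**Figure D5:**
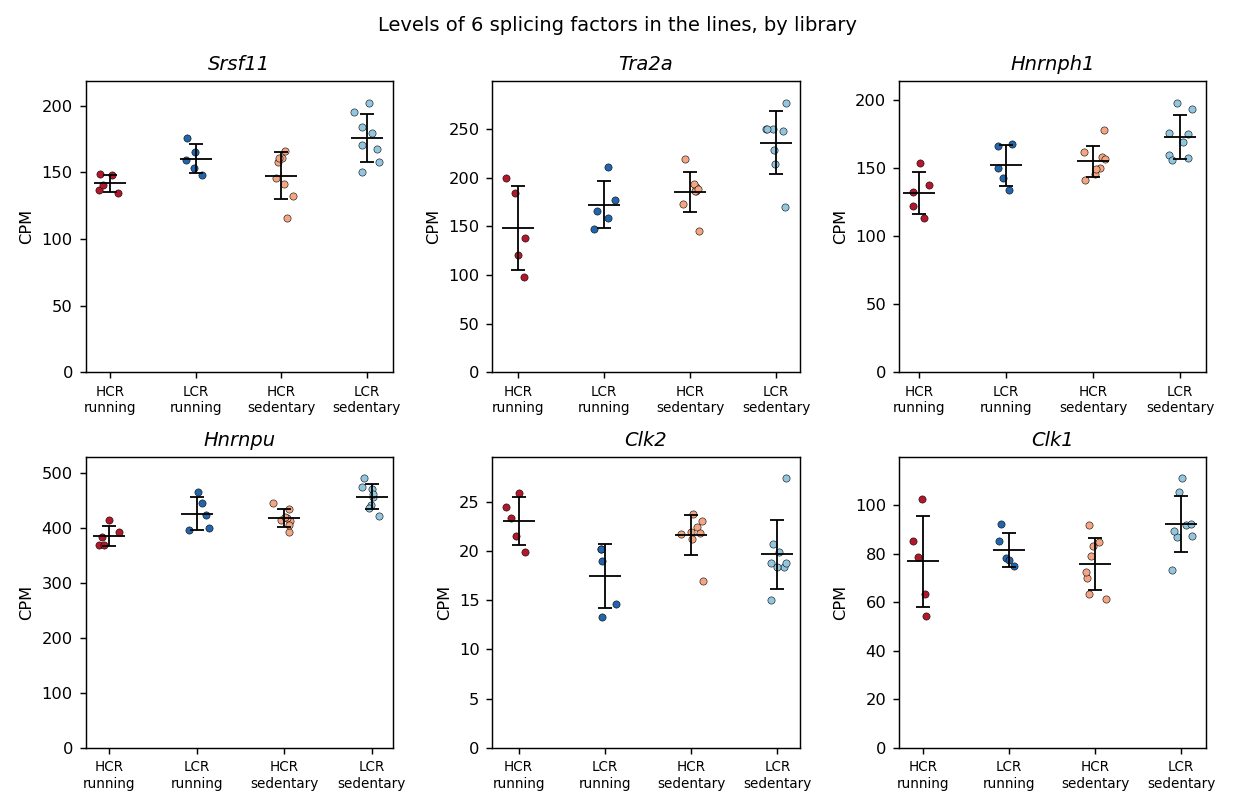
CPM of 6 splicing factors in each library by group, with the group mean (long bar) and SD (whiskers), 5 running and 8 sedentary libraries per line. In both conditions the HCR means of Srsf11, Tra2a, Hnrnph1, Hnrnpu and Clk1 lie below the LCR means and that of Clk2 above.

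Tra2a came next, at -0.27 on the log2 scale in HCR (SE 0.09, adjusted p = 0.0918, edgeR), with 12 of 13 HCR libraries below the LCR mean. Hnrnph1 averaged 131.9 ± 15.53 CPM in running HCR against 152.3 ± 14.96 CPM in running LCR (SD, n = 5 each), and 155.2 ± 11.5 CPM in sedentary HCR against 173.3 ± 16.1 CPM in sedentary LCR (n = 8 each). Its estimate was -0.18 (SE 0.06, adjusted p = 0.0961, edgeR). With the line taken from the titles of the libraries in conflict, Tra2a stood at -0.12 (adjusted p = 0.642, edgeR) and Hnrnph1 at -0.08 (adjusted p = 0.685, edgeR). Hnrnpu was at -0.14 (adjusted p = 0.114), with all 13 HCR libraries below the LCR mean. Tra2b was at -0.06 (95% interval -0.19 to 0.08).

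Of the kinases, Clk2 was at 0.28 (SE 0.10, adjusted p = 0.133, edgeR) with 12 of 13 HCR libraries above the LCR mean, and Clk1 at -0.19 (adjusted p = 0.256) with 11 of 13 below. Clk4 was at 0.16 (95% interval -0.11 to 0.43) and Clk3 at 0.02 (-0.14 to 0.18). Among the muscle regulators, Celf1 was at 0.10 (-0.03 to 0.24), Rbfox1 at 0.04 (-0.09 to 0.16), Mbnl1 at -0.02 (-0.13 to 0.10), Celf2 at -0.03 (-0.26 to 0.20) and Mbnl2 at -0.04 (-0.17 to 0.09). Clk3, Celf2, Rbfox1, Mbnl1 and Mbnl2 had estimates so near 0 that their sign turned when a single library was left out.

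In sedentary rats alone, 0 of 40 members passed in edgeR, against 2.72% of all genes; 8 of 40 had an unadjusted p under 0.05, against 15.9% of all genes. DESeq2 called 1 and limma voom with quality weights 2, and their shares of all genes are not given here. Srsf11 was at -0.25 (SE 0.08, adjusted p = 0.0630, edgeR) and Tra2a at -0.34 (SE 0.11, adjusted p = 0.0887, edgeR), each with 8 of 8 HCR libraries below the LCR mean. Srsf3 stood in the other direction, at 83.61 ± 13.61 CPM in HCR against 68.33 ± 10.95 CPM in LCR (SD, n = 8 each). Its estimate was 0.30 on the log2 scale (SE 0.10, adjusted p = 0.110, edgeR). In running rats, 0 of 40 members passed in edgeR, against 0.626% of all genes; 3 of 40 had an unadjusted p under 0.05, against 8.58% of all genes, and DESeq2 and limma voom called 0. Clk2 had 24.53, 25.95, 23.33, 19.86 and 21.53 CPM in running HCR, against 18.99, 14.6, 13.33, 20.22 and 20.23 CPM in running LCR. All 5 HCR values exceeded the LCR mean and the groups overlapped at about 20 CPM, and the estimate was 0.42 on the log2 scale (SE 0.16, adjusted p = 0.348, edgeR). Hnrnph1 was at -0.20 and Hnrnpa1, a repressor of exon inclusion, at 0.28. With the line taken from the titles Hnrnph1 was at 0.0048 and Hnrnpa1 at 0.06. Estimates below 0 in both conditions were found for 16 of 40 members (40%), against 28.1% of all genes.

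Other lists of splicing genes were counted in the same comparisons. Of 26 SR-related proteins, 0 passed in any of the 7 comparisons in edgeR, in which 0% to 3.75% of all genes passed. For running averaged over the lines their median log2 fold change was -0.0969, with 20 of 26 below 0 (76.9%), against 51% of all genes. An unadjusted p under 0.05 in edgeR was reached by 8 of 26 (30.8%), against 12.7% of all genes. For HCR against LCR averaged, 24 of 26 were below 0 (92.3%) with a median of -0.101, against 49.3% of all genes. Whether the list differs from all genes was not tested. Of 7 tested kinases and import factors of SR proteins and 38 tested other splicing regulators, 0 passed in any comparison. For running averaged over the lines, 22 of the 38 were below 0 (57.9%, median -0.0202), and 7 (18.4%) had an unadjusted p under 0.05 (edgeR). Of the 56 tested core proteins of the spliceosome, 35 were below 0 (62.5%, median -0.0357), and 8 (14.3%) had such a p. Of the 7 kinases and import factors, 6 were below 0 (median -0.0172), and 0 had such a p. For HCR against LCR averaged, the shares below 0 were 60.5%, 62.5% and 71.4% in the same order. Among 56 tested core proteins of the spliceosome, Dhx38, a helicase needed for the second catalytic step, fell in sedentary HCR to 41.03 CPM on average, against 53.71 CPM in sedentary LCR (log2 fold change -0.39, SE 0.11, adjusted p = 0.0418, edgeR). In runners Dhx38 averaged 44.19 CPM in HCR and 43.22 CPM in LCR, and it was called neither there nor averaged over both conditions. Its response to running in HCR minus that in LCR was 0.41 on the log2 scale (unadjusted p = 0.0269, adjusted p = 0.836, edgeR). Dhx38 was the only called gene of these 4 lists, while 2.72% of all genes were called between the sedentary lines.

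Other transcripts moved along the same comparisons, and their part in the results above was not tested. Immediate early genes, induced within minutes of a stimulus, were below 0 for running in 17 of 21 tested, and Rhob and Dusp1 fell (log2 fold changes -0.76 and -0.70, adjusted p = 0.0425 and 0.0446, edgeR). The summed level of all 24 ranged from 1122 to 1879 CPM in running HCR and 1486 to 2150 CPM in running LCR, against 1657 to 2584 CPM in sedentary HCR and 1547 to 3066 CPM in sedentary LCR. Of the slow-fibre markers, 8 of 8 were above 0 for running and Tnnc1, the slow troponin C, rose (0.40, adjusted p = 0.0425, edgeR). Of 7 tested fast-fibre markers, 6 were below 0 for running with a median log2 fold change of -0.652, and 0 passed in edgeR while 3 had an unadjusted p under 0.05. Within HCR their median for running was -1.06. The 2 tested fat-cell markers were both below 0 for running with a median of -0.988, with 0 calls in edgeR and 1 unadjusted p under 0.05. For HCR against LCR, 6 of 7 tested fast-fibre markers were below 0, and Myh2, Tnni2 and Tnnt3 fell (-1.97, -1.81 and -1.45, adjusted p = 0.00197, 0.000327 and 0.000458, edgeR). The summed fast-fibre level ran from 1446 to 2789 CPM in running HCR against 2898 to 9413 CPM in running LCR, and from 1277 to 6153 CPM in sedentary HCR against 3852 to 9407 CPM in sedentary LCR.

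In the same averaged comparison the macrophage receptor Folr2 rose (0.46, adjusted p = 0.0315, edgeR). The immediate early gene Jund fell (-0.31, adjusted p = 0.0296), as did the heat shock gene Hspa1a (-0.49, adjusted p = 0.0251), while the mitochondrial chaperone Hspd1 rose (0.24, adjusted p = 0.0114). Markers of fibroblasts, endothelium, fat cells and satellite cells had 0 calls in all 7 comparisons, and no lymphocyte marker had enough counts to be tested. For running averaged over the lines, 3 of 5 endothelial markers had an unadjusted p under 0.05 (edgeR), against 12.7% of all genes. Of the 5, 4 were below 0; Kdr was at -0.34 and Flt1, in the other direction, at 0.23.

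Covariation was examined over the 26 libraries after removing group means, for 10 pairs. The strongest was Tra2a with Tra2b, with Pearson r = 0.538 (permutation p = 0.00576, adjusted over 10 pairs 0.0576) and Spearman rho = 0.56 (p = 0.00965, adjusted 0.0965), so that 0 of 10 pairs passed. Without the 2 libraries farthest from the median of Tra2a, r was 0.564. Within the sedentary groups r was 0.365 in HCR and -0.0503 in LCR (8 libraries each). Within the running groups r was 0.975 in HCR and 0.963 in LCR (5 libraries each). A split by condition, added after the values were seen, gave r = 0.774 and rho = 0.867 over the 10 runners (permutation p = 0.00034 and 0.00127, adjusted over 2 values 0.00068 and 0.00254). Over the 16 sedentary libraries r was 0.0743 and rho 0.215 (permutation p = 0.799 and 0.445, adjusted over 2 values 0.799 and 0.445). Without the 2 libraries farthest from the median of Tra2a, r was 0.78 in runners and 0.237 in sedentary rats, and the difference between runners and sedentary rats was not tested. The pair, the strongest of 10, and its split were both picked from these same values. An adjustment over 2 values does not cover that choice, so the p-values of the split cannot serve as a test. The next in size, Srsf5 with Clk1, was negative, at r = -0.394 (adjusted p = 0.454). Over all 780 pairs of the 40 genes the median r was 0.0877 with 496 above 0, and 1 pair reached 0.7. This was Srsf2 with Srsf1, at 0.84, named after its value was seen. All genes of a library share its depth, so these values are a description of the libraries.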

How the data were processed

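Messenger RNA 3′ ends were counted in 26 soleus libraries, prepared from total RNA with an oligo(dT) primer and sequenced as single reads, per the labels' protocols. The authors deposited raw counts: every value is a whole number and library totals differ. Tools listed in the submitters' processing notes are featureCounts, STAR, cutadapt, UMI-tools, MultiQC and FastQC, without versions, with the assembly mRatBN7.2 (rn7). The sources used here do not say whether molecular identifiers were collapsed or counting used strand. Overlapping genes and those with processed copies in the genome, as hnRNP genes have, are uncertain, and intervals cover counting and sampling error only. All columns belonged to a sample.

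Groups follow genotype, description and treatment. The counts were fitted with edgeR 4.0.16 in R 4.3.3 (TMM, filterByExpr by group, robust quasi-likelihood F test, biological coefficient of variation 0.156, all 26 libraries, no covariate), with Benjamini-Hochberg adjustment over 10064 genes and a threshold of 0.05. Standard errors are the absolute log2 fold change over the root of F, and 95% intervals are built from them. CPM are counts divided by the library's tested-gene total times its TMM factor and multiplied by 1e+06, and log2 CPM add a prior count of 2. Permutation tests used 100000 draws, within groups for covariation.

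Named genes are the called members, the 3 of smallest p in each comparison, the 3 most abundant SR proteins and hnRNPs, all TRA2, CLK, MBNL, CELF and RBFOX genes, and called genes of the other lists (splicing, stress, fibre type and cell type). Of the genes this rule names, 1 is not reported here. Other named members were chosen after their values were seen. Members and lists were chosen with earlier results of these data known. Alternatives were other scalings, DESeq2 1.42.0, limma 3.58.1 voom, no filter, a replicate block, the line as titled, and each library left out. The tests were tried on simulated counts. Same-group libraries were compared by a chi-square over genes to find any library deposited more than once; it was at least 2.24 per degree of freedom in every pair.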

Additional observations from a re-analysis of the deposited data

Results flagged for a closer look

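Dixon's test was run on the CPM of 23 named splicing factors in each of the 4 groups, 92 combinations in all, and marked 4 single libraries as far from the rest of their group. Chance marks about 1 in 20. Celf1 stood at 129.2 CPM in HCR running 4, against 157.8 to 168.7 CPM in the other running HCR libraries. Mbnl2 stood at 936.6 CPM in LCR running 5, one of the libraries with a conflicting title, against 673.4 to 733.7 CPM in the other running LCR libraries. Clk2 was low in HCR sedentary 7, at 16.95 CPM against 21.22 to 23.74 CPM in the rest of its group, and high in LCR sedentary 2, at 27.4 CPM against 14.98 to 20.68 CPM. Neither Celf1 nor Mbnl2 nor Clk2 passed the threshold in any comparison.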

How the results depend on the processing

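Both calls were close to the threshold. For running averaged over the lines (1 splicing factor called), 0 were called with RLE factors, with the replicate block, with the line taken from titles and with mitochondrial genes left out of library sizes. With upper-quartile factors 2 were called, with limma voom 3, with DESeq2 4, and 3 without both libraries of conflicting titles. Leaving out 1 library gave 0 to 3. For HCR against LCR averaged (1 called), 0 were called with no filter, with the titles' line and without those libraries, DESeq2 called 2, and leaving out 1 library gave 0 to 3. For the sedentary lines (0 called), DESeq2, the replicate block and a fit of only these groups called 1 each, voom called 2, and leaving out 1 library gave 0 to 2. DESeq2 called 3 for running in HCR (0 called). The other comparisons kept 0 in every fit run. Shares of all genes called are not given for fits other than the main one, so these counts describe the members only.

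Tra2a for running had values from -0.46 to -0.33 as each library was left out and adjusted p of 0.01405 to 0.152 over the other settings. The call held only without LCR sedentary 5, HCR sedentary 4 or 5, HCR running 2 or 4, or LCR running 5; without HCR running 3 adjusted p was 0.121 and without LCR running 1 it was 0.125. With the replicate block Tra2a was at -0.38 (adjusted p = 0.152) and Srsf11 between the lines at -0.22 (adjusted p = 0.0238). Deviations of same-number libraries in different groups had correlations from -0.212 to 0.266, with means from -0.09 to 0.0474. These values give no sign that the numbers pair animals across groups but cannot exclude it. They do not address runners of 1 group that shared a cage. Srsf11 had adjusted p of 0.0227 to 0.188 over the settings other than leaving out libraries. With the titles' line, 7 signs turned: Hnrnph1 in running lines 0.00481, Tra2b in the difference of responses 0.0003967, and between the lines averaged Tra2b 0.07055, Clk3 -0.003396, Mbnl1 0.02523, Mbnl2 0.01361 and Rbfox1 -0.06582. Without both libraries, Mbnl1 was at 0.001546 and Rbfox1 at -0.01352. Leaving out 1 library gave, between the lines averaged, Clk3 -0.01897 to 0.03909, Celf2 -0.0715 to 0.009162, Rbfox1 -0.004054 to 0.06813, Mbnl1 -0.0411 to 0.006399 and Mbnl2 -0.06019 to 0.003565. Of 1412 values of single genes, 1329 kept direction and side of the threshold, 41 lost and 25 gained a call, and 17 turned sign; the cause was not tested.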
